A study of Mus musculus with 8 samples.

Results

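Normal gene expression in the mouse dorsal forebrain at E12.5, and its spread between samples, is described here from the 4 control samples of a series of 8 samples: Cont_294, Cont_345, Cont_365 and Cont_370. They were chosen by their titles and genotype labels, and the 4 Sufu-cKO samples of the series were not used. All 4 were labelled as male dorsal forebrain, with C57BL/6J in a mixed background. Their labels give the control genotype as Sufu-fl/fl or Sufu-fl/+ without saying which sample carried which, so every control carried at least 1 floxed allele of Sufu, a negative regulator of Hedgehog signalling, and no cre is named for them. The labels do not say whether the samples were separate embryos or litters or whether tissue was pooled, so spread here is spread between libraries, which may be technical. The 4 libraries held 29127748, 27514357, 31352307 and 34878838 counts, in the order of their numbers. Every pair of libraries differed by more than counting error, with a chi-square of 9.87 to 18.9 per gene, so no pair looked like 1 library listed again, though this does not show that they came from separate embryos.

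At this age the dorsal forebrain, or pallium, holds the primordium of the neocortex. Radial glia divide at the ventricle, some of their daughters become intermediate progenitors, and both give rise to the earliest projection neurons. The pallium is bordered by signalling centres that pattern it: a rostral source of fibroblast growth factors (FGFs) and, along the dorsal midline, the cortical hem, which lies next to the choroid plexus and sends out Wnt and BMP signals. On its ventral side it meets the ganglionic eminences of the subpallium, which make GABAergic neurons, and it is covered by meninges and supplied by vessels with primitive red cells.

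Counts were found for 23668 of the 43629 listed gene IDs, and 23420 of those had an exon length from which TPM (a level per transcript length, scaled to the same total in each sample) could be computed. Between genes, levels are given in TPM. Between samples, they are given in CPM (counts scaled to the same library size, with TMM, edgeR's correction for library composition). A mean of at least 1 TPM was reached by 14885 genes, 13140 of them protein-coding, at least 100 TPM by 2365 and at least 1000 TPM by 51. The most abundant 1427 genes held 50% of all counts, and the 10 most counted genes held 3.19%.

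The 6 marker genes fitted the labelled tissue, with 4 pallial genes far above the subpallial Dlx2. Eomes, a T-box factor of intermediate progenitors, stood at 293.9 ± 30.1 TPM (SD, n = 4) and ranked 492 of the 23420 genes. Tbr1, a T-box factor of early projection neurons, stood at 178 ± 7.62 TPM (rank 1101). Emx1, a homeobox gene of the pallium, stood at 101 ± 11.7 TPM (rank 2331), and Pax6, a paired-box factor of radial glia, at 87.3 ± 6.84 TPM (rank 2753). Dlx2, a homeobox gene of the subpallium that marks tissue from outside the pallium, had 9.05 ± 9.88 TPM (rank 10433). Ttr, transthyretin, the most abundant product of the choroid plexus, stood far higher at 1677 ± 364 TPM (rank 25).

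Sample by sample, Emx1 had 43.9, 56.9, 56.2 and 50.7 CPM in Cont_294, Cont_345, Cont_365 and Cont_370, and Tbr1 had 220, 225, 232 and 242 CPM in the same order, which is kept throughout. Eomes had 285, 309, 309 and 246 CPM, and Pax6 had 245, 257, 214 and 243.3 CPM. The 4 pallial markers thus stayed within a coefficient of variation (CV) of 4.18% to 11.6%. Ttr had 444, 481, 598 and 348 CPM, highest in Cont_365 and lowest in Cont_370 (CV 22.1%). Dlx2 had 2.38, 1.06, 5.21 and 15.6 CPM, a CV of 109%, with Cont_370 highest and Cont_345 lowest. Without Cont_370 the mean of Dlx2 was 2.88 CPM instead of 6.07 CPM.

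**Figure D1:**
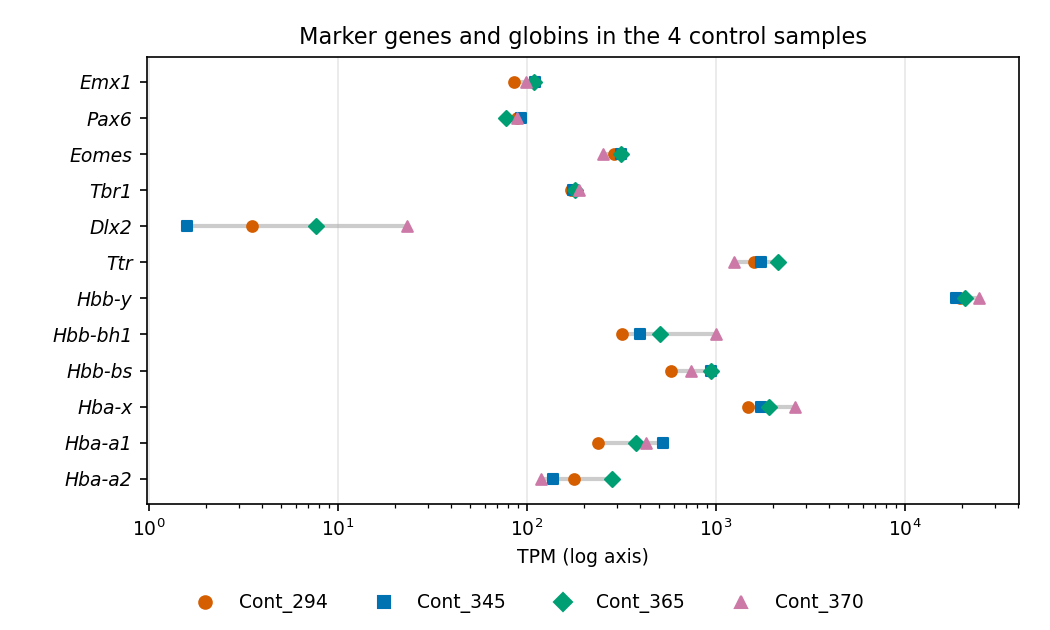
TPM (horizontal log axis) of the 6 marker genes and 6 globin genes, 1 point per control sample, with a grey bar from the lowest to the highest sample. Emx1, Pax6, Eomes and Tbr1 form tight groups, Dlx2 spreads from 1.59 to 23.4 TPM, and Hbb-y lies above every other gene shown.

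By the deposited counts, the most abundant transcript came from blood. Hbb-y, the embryonic beta-like globin of primitive red cells, ranked 1 with 20983 ± 2623 TPM, and Hba-x, its alpha-like partner, ranked 19 with 1938 ± 491 TPM. Mitochondrial genes followed, led by mt-Nd1 with 12616 ± 1489 TPM (rank 2), mt-Cytb (rank 3) and mt-Co1 (rank 4). The most abundant nuclear genes not of blood were Hsp90ab1, a chaperone (5500 ± 259 TPM), Eef1a1, a translation elongation factor (4589 ± 264 TPM), Tubb5, a beta-tubulin (4448 ± 211 TPM), and Tmsb4x, thymosin beta 4, which binds actin monomers (3919 ± 190 TPM). Rpl4, Nnat (neuronatin), Tuba1a, Ywhae, Actb, Eef2, Rpl8 and Hnrnpa2b1 followed among protein-coding genes of the nuclear genome, between 1806 and 2773 TPM. Of these nuclear genes, Hba-x had the widest spread, with a highest to lowest ratio of 1.77, and the others reached at most 1.31, in Hbb-y. The ranks follow the deposited counts, in which some genes with nearly identical copies were low or absent. Gapdh had 20.6, 22.0, 19.5 and 29.5 CPM, and mt-Co2, mt-Co3 and mt-Atp6 were listed at 0 in every sample. Where such genes would rank if counted otherwise was not tested.

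For the spread between samples, 13640 genes averaging 1 CPM or more were tested, holding 99.8% of all counts. Their median CV was 7.44%, with a 5th percentile of 2.34% and a 95th percentile of 27.8%, and the median ratio of the highest to the lowest sample was 1.18. The biological coefficient of variation, edgeR's estimate of the spread beyond counting error, was 10.8%. A gene was called variable where its counts over the 4 libraries departed from equal shares (chi-square test, Benjamini-Hochberg adjusted p under 0.05) and its highest sample had at least 2 times the CPM of its lowest. The test compares libraries against counting error and no conditions. It called 527 genes, 3.86% of those tested, while 9017 passed the chi-square alone. With Cont_365 left out 2.56% of tested genes were called, and with Cont_370 left out 2.17%.

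Variable genes were mostly low in abundance. They made up 19.2% of genes at 1 to 3 CPM, 6.99% at 3 to 10 CPM, 1.60% at 10 to 30 CPM and 0.140% at 100 CPM and over. The highest sample was Cont_370 for 218 variable genes, Cont_294 for 131, Cont_365 for 115 and Cont_345 for 63. At the other end, the 10 steadiest protein-coding genes with at least 100 CPM had a CV of 0.232% to 0.629%. They included Arih1, a ubiquitin ligase (240, 240, 240 and 241 CPM), Rtn4, the gene of Nogo (459, 456, 456 and 457 CPM), Ice1, a subunit of the little elongation complex, and Suds3, a subunit of the Sin3 corepressor complex. Chosen as the smallest values of many, their CVs lie below counting error, which is 1.16% for Arih1.

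**Figure D2:**
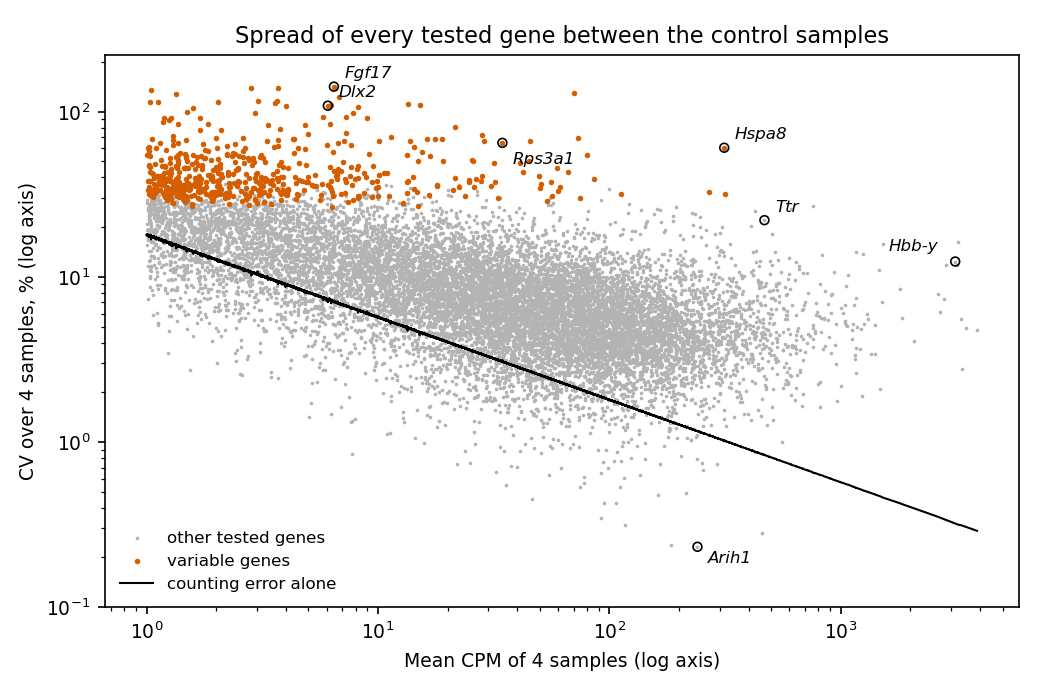
CV over the 4 control samples (vertical log axis) against mean CPM (horizontal log axis) for the 13640 tested genes. Orange points are the 527 variable genes and the line is the CV that counting error alone gives. The cloud follows the line at low levels and levels off above it, and Hspa8 and Rps3a1 stand out among abundant genes.

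Gene lists for cell types and regions were summed in CPM for each sample. In bulk tissue a lower sum can mean fewer cells of a type or less RNA per cell, which cannot be told apart, and members of a list share their cells, so they are not independent replicates. Counts of variable members are to be read against the 3.86% of all tested genes, and median ratios against the 1.18 of all tested genes. A gene high in 1 sample only can reach the 1 CPM needed for a test through that sample alone, and such members had to differ.

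The pallial progenitor list was steady. Of 14 pallial progenitor genes, 0 were variable, their median ratio was 1.19 and their summed level was 2441, 2679, 2420 and 2403 CPM. Lhx2, a selector of cortical identity, had 538, 635, 599 and 548 CPM. Cont_345 was highest for 11 of these 14 genes, against 20.1% of all tested genes, but by small steps.

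Replication and mitosis genes summed to 6028, 6036, 5494 and 5672 CPM, and intermediate progenitor genes to 1319, 1440, 1374 and 1242 CPM. None of the 20 and 12 members was variable. Top2a, a topoisomerase of dividing cells, stood at 536 ± 37.7 TPM, and Neurog2, a proneural factor, at 407 ± 39.5 TPM. Pcna, the replication clamp, had 196, 199, 138 and 134 CPM. Its nearly identical copy Pcna-ps2 had 39.2, 36.3, 76.4 and 71.8 CPM, and the sum of both had a ratio of 1.14. How reads were assigned between them was not tested.

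Genes of neurons of any type spread more than the median tested gene, in a partly shared order. They summed to 2459, 2644, 2879 and 2797 CPM, with a median ratio of 1.31, and 0 of 15 was variable. Cont_294 was lowest for 13 of the 15 and Cont_365 highest for 10, against 26.8% and 27.3% of all tested genes. Tubb3, the neuronal beta-tubulin, had 354, 449, 478 and 436 CPM, and Mapt, the gene of tau, had 80.0, 81.9, 107 and 101 CPM. The sum of progenitor genes of any region divided by that of neuron genes was 1.68, 1.60, 1.33 and 1.44. This ratio was highest in Cont_294 and lowest in Cont_365. Pallial progenitor genes over cortical projection neuron genes gave 1.24, 1.18, 1.07 and 1.31, highest in Cont_370 and again lowest in Cont_365. Of the 14 progenitor genes of any region, 9 were highest in Cont_345 and 2 in Cont_294, against 20.1% and 27.0% of all tested genes.

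Cortical projection neuron genes summed to 1974, 2277, 2266 and 1832 CPM, with 0 of 14 variable and a median ratio of 1.33. Cont_370 was lowest for 9, against 23.85% of all tested genes. Neurod6, a factor of young pallial neurons, had 239, 294.7, 312 and 203 CPM, the widest ratio of the list at 1.54. Nfib, a nuclear factor I gene, had 798, 961, 874 and 696 CPM. Cont_370 was thus low in the pallial neuron list while it was second highest for neurons of any type. Factors of cortical areas were steady in their sum (ratio 1.09), with a median ratio of 1.29. Efna5, an axon guidance ligand, was the single variable member of 11 (16.2, 13.1, 9.11 and 20.4 CPM). Its call was lost without Cont_365 (ratio 1.56) and without Cont_370 (ratio 1.78).

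**Figure D3:**
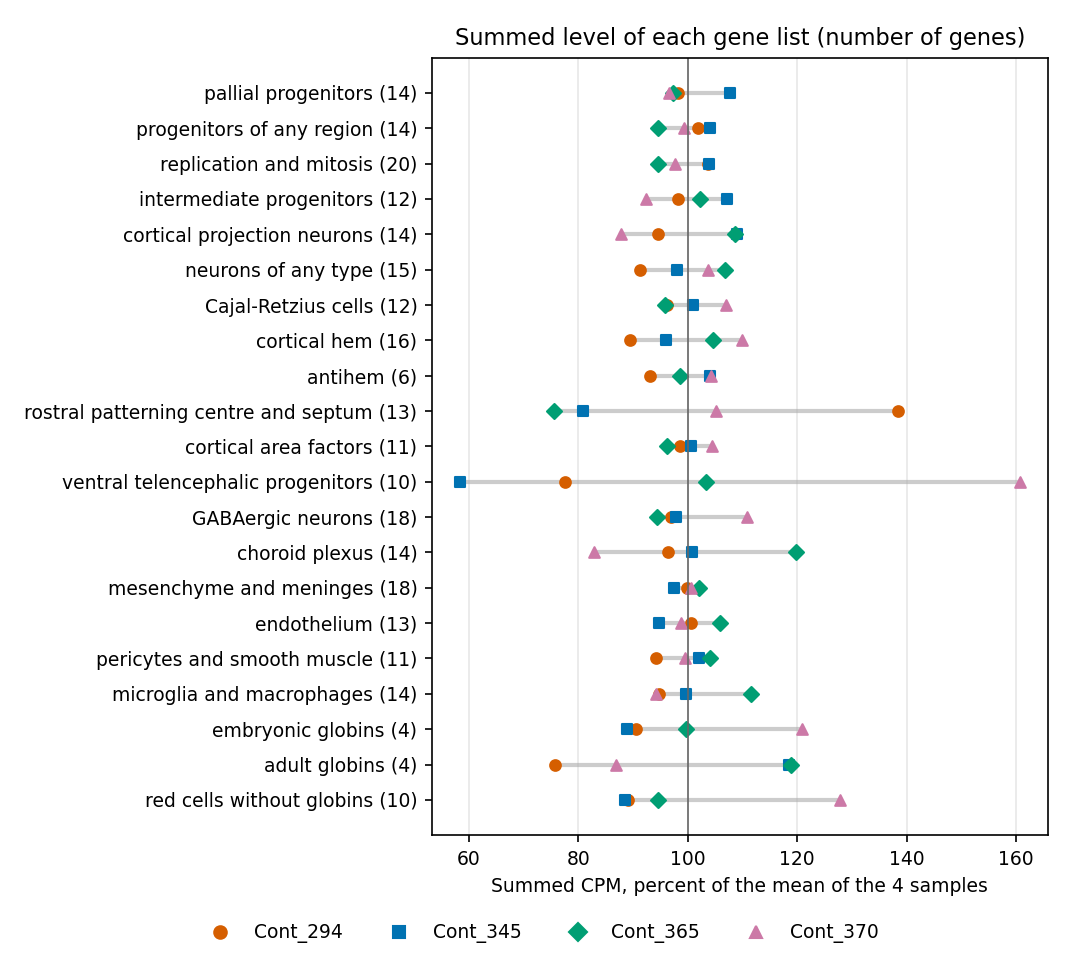
Summed CPM of 21 gene lists in each control sample, as percent of the mean of the 4 samples, with the number of genes in brackets. Among the 21 lists plotted, the ventral list (Cont_370 high, Cont_345 low) and the rostral list (Cont_294 high) spread furthest, and mesenchyme and meninges spread least.

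At the dorsal midline, the 16 cortical hem genes summed to 584, 627, 683 and 718 CPM. No member was variable and the median ratio was 1.40, but the order was shared. Cont_294 was lowest for 12 of 16 and Cont_370 highest for 11, against 26.8% and 25.6% of all tested genes. Wnt3a, a hem ligand needed for hippocampal growth, had 12.1, 14.4, 15.8 and 17.5 CPM. Wnt2b had 16.2, 19.2, 23.7 and 27.9 CPM, the widest ratio of the list at 1.72, and Rspo2, an R-spondin that enhances Wnt signalling, had 54.0, 57.6, 65.3 and 75.8 CPM. Cajal-Retzius cells, early neurons that leave the hem and other borders of the pallium, showed Cont_370 highest for 8 of 12 genes. The median ratio of the 12 was 1.41. Reln, the glycoprotein of these cells, had 129, 159, 147 and 139 CPM. Barhl2 and Ndnf were the variable members of that list, both at under 4 CPM in every sample, and both calls were lost without Cont_370, that of Ndnf also without Cont_365 (ratio 1.59).

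At the rostral side the samples separated clearly. The 13 genes of the rostral patterning centre and septum summed to 612, 357, 334 and 465 CPM, highest in Cont_294 and next in Cont_370. Of 11 tested members 7 were variable, against 3.86% of all tested genes, and Cont_294 was highest for 9, against 27.0%. The exceptions were Lhx6, highest in Cont_365 (2.38, 2.71, 8.67 and 3.39 CPM), and Etv1, highest in Cont_370, and both were among the variable members. Lhx6 and Six3, another variable member, also belong to the GABAergic list below. Fgf17, an FGF of the rostral centre, had 20.03, 0.440, 1.65 and 3.67 CPM, a ratio of 45.6 that rests on 581, 12, 52 and 129 counts and was 8.35 without Cont_294 and 12.1 without Cont_345. Fgf8, the founding ligand of this centre, was too low to be tested, with 31, 1, 3 and 4 counts. Zic4, a zinc finger factor of the septum and midline, had 94.6, 38.6, 37.3 and 66.8 CPM. The summed level without Cont_294 had a ratio of 1.39 instead of 1.83, and the calls of Zic4 and Etv5 were lost (ratios 1.79 and 1.13). The call of Etv5 was also lost without Cont_365 (ratio 1.87).

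A list of 18 FGF ligands and response genes was drawn up after these values were seen, so it is a description. Of 16 tested members 8 were variable, against 3.86% of all tested genes. Cont_294 was highest for 12, against 27.0% of all tested genes, Cont_370 for 2, Cont_365 for 1 and Cont_345 for 1. Cnpy1, a variable member, reached 1 CPM through Cont_294 alone. With members chosen after their values were seen, these counts are no measure of the list. Spred1, Spred2, Phlda1 and Shisa2 were nearly level, with ratios of 1.12 to 1.26. Etv5 and Etv4, ETS factors switched on by FGF signalling, had 49.9, 27.4, 24.3 and 26.5 CPM and 11.3, 5.27, 6.00 and 6.46 CPM. Spry1, a feedback inhibitor of FGF receptor signalling, had 43.7, 21.5, 21.9 and 24.9 CPM.

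Il17rd, known as Sef and another such inhibitor, had 78.5, 32.2, 29.6 and 40.2 CPM. Dusp6, a phosphatase of ERK, had 45.6, 30.5, 25.1 and 31.5 CPM, a ratio of 1.82. In these 5 genes Cont_294 stood above the other 3 samples, which lay close together. Fgf15, an FGF with a wider domain, Etv1, another ETS factor, and Six3, a rostral homeobox gene, departed from this pattern. Etv1 had 18.1, 12.53, 6.79 and 19.0 CPM. Fgf15 had 7.31, 2.34, 1.40 and 8.91 CPM, and Six3 had 6.21, 1.06, 2.10 and 5.49 CPM, so Cont_294 and Cont_370 were both high. Fezf1, a factor of the rostral forebrain and hypothalamus, was also high in both, with 3.48, 0.293, 0.476 and 2.53 CPM. Etv1 and Fgf15 were highest in Cont_370 and lowest in Cont_365, Six3 and Fezf1 highest in Cont_294 and lowest in Cont_345.

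On the ventral side the samples differed by larger factors. The 10 genes of ventral progenitors summed to 54.0, 40.6, 71.9 and 112 CPM, a ratio of 2.75, the largest among lists with at least 5 tested members, that was 1.77 without Cont_370. The 1 CPM needed for a test was reached by 5 of the 10, and 4 of those were variable. Gsx2 reached it through Cont_370 alone, so the count is no measure of the list. Dlx1, the partner of Dlx2 in subpallial progenitors, had 6.69, 1.72, 12.95 and 39.2 CPM, a ratio of 22.8 that was 5.86 without Cont_345 and 7.52 without Cont_370. Gsx2, a factor of the lateral ganglionic eminence, had 21, 3, 21 and 136 counts, a ratio of 35.2 with a 95% exact binomial interval of 11.8 to 173 (Clopper-Pearson, counting error only), and of 5.81 without Cont_345.

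Many GABAergic genes were also highest in Cont_370, though the order of the other samples varied. Of 18 genes 15 were tested and 10 of those were variable, but Isl1, Dlx5, Slc32a1 and Sp9 reached 1 CPM through Cont_370 alone, so the count is no measure of the list. Gad1 and Gad2, the enzymes that make GABA, had 4.10, 1.54, 3.84 and 13.7 CPM and 5.17, 1.36, 5.27 and 20.95 CPM. Dlx6os1, a noncoding RNA of the Dlx5 and Dlx6 locus, had 6.00, 2.31, 10.2 and 35.2 CPM. Slc32a1, the vesicular GABA transporter, had 15, 14, 32 and 94 counts. Isl1, a LIM factor of striatal neurons, had 52, 1, 21 and 136 counts, a ratio of 106 with an interval of 18.7 to 4205 that was 5.81 without Cont_345.

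The summed level of this list hid the spread, at 511, 516, 498 and 585 CPM, because Meis2 (371, 393, 364 and 361 CPM), which the pallium also expresses, dominates it. Slc18a2, the vesicular monoamine transporter, and Tfap2e, an AP-2 factor, were among the genes with the 20 largest ratios and also highest in Cont_370 (8.65 and 3.16 CPM, against 0.183 to 1.68 CPM and 0.220 to 0.483 CPM elsewhere).

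Some genes of the medial and of the lateral eminence peaked in different samples. Nkx2-1, the selector of the medial ganglionic eminence, had 5, 0, 96 and 3 counts, at least 27.7-fold higher in Cont_365 than in Cont_345 when a library's floor of 3 counts stands for 0. Lhx6, its target in interneurons, had 2.38, 2.71, 8.67 and 3.39 CPM, and Sst, the gene of somatostatin, had 1.31, 1.32, 3.33 and 1.62 CPM. Gsx1 was counted in Cont_365 only, with 9 counts, where 0 counts in the others allow up to 3 counts. A list of 10 medial eminence genes was drawn up after values were seen, and 6 of them were tested. Cont_365 was highest for 4 of the 6, against 27.3% of all tested genes, which describes the chosen list only. The exceptions were Sox6, which the pallium also expresses (highest in Cont_294), and Erbb4 (13.6, 15.7, 13.3 and 20.9 CPM). Variable genes were 2 of the 6, against 3.86% of all tested genes.

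Meis1 (5.38, 5.31, 5.05 and 14.8 CPM) and Pbx3 (20.995, 18.6, 17.5 and 45.2 CPM), homeobox genes of the lateral eminence, peaked in Cont_370. They belong to a list of 12 lateral eminence genes drawn up after values were seen. Of the 12, 7 were highest in Cont_370 and 5 were variable, against 25.6% and 3.86% of all tested genes. Gsx2 and Isl1 reached 1 CPM through Cont_370 alone, so these counts are no measure of the list. Six3 and Ikzf1 were highest in Cont_294, Foxp1 and Meis2 in Cont_345 and Rarb in Cont_365. Without Cont_365 the calls of Lhx6 and Sst were lost (ratios 1.43 and 1.24). Without Cont_370 the genes Gsx2, Isl1, Dlx5, Slc32a1, Sp9, Slc18a2 and Tfap2e fell below the 1 CPM needed for a test.

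**Figure D4:**
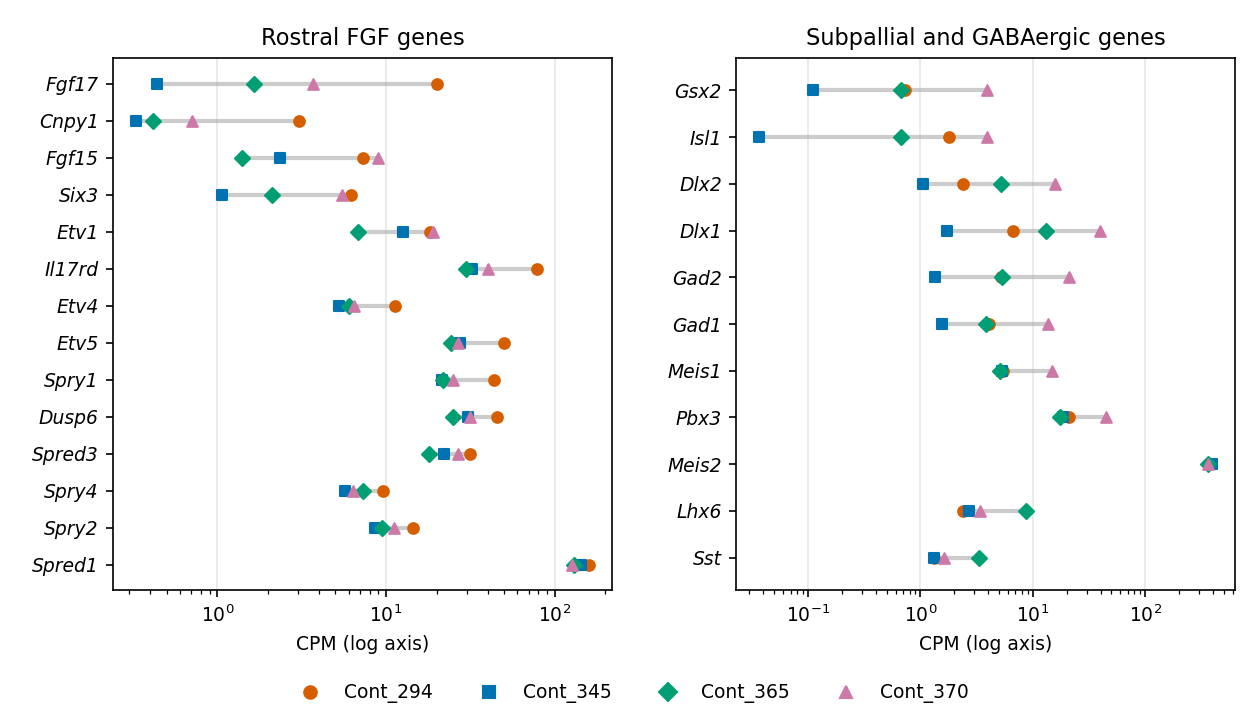
CPM (horizontal log axis) of rostral FGF genes (left) and of subpallial and GABAergic genes (right), 1 point per control sample, with a grey bar from the lowest to the highest sample. Cont_294 is furthest right for Fgf17, Il17rd, Etv4, Etv5 and Spry1, Cont_370 for Gsx2, Isl1, the Dlx and the Gad genes, and Cont_365 for Lhx6 and Sst. Meis2 spreads little.

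The choroid plexus list summed to 743, 776, 923 and 637 CPM, and 0 of 13 tested members was variable, with a median ratio of 1.42. Cont_365 was highest for 7 and Cont_370 lowest for 8, against 27.3% and 23.85% of all tested genes. Kcne2, a potassium channel subunit of the plexus, had 27.7, 29.96, 33.4 and 21.5 CPM, and Enpp2, the gene of autotaxin, had 34.96, 34.8, 39.4 and 27.8 CPM, both in the same order at their extremes as Ttr. Clic6 (71.6, 82.5, 86.2 and 77.7 CPM) spread less, and Otx2, which the midline and hem also express, was highest in Cont_370 (45.5, 33.2, 36.4 and 46.3 CPM). Cont_370 was thus lowest for plexus genes and highest for hem genes.

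Mesenchyme and meninges spread little in their sum, with 1539, 1504, 1573 and 1553 CPM and a ratio of 1.05. Col3a1, a fibrillar collagen, had 497, 447, 451 and 458 CPM, and Foxc1, a factor of the meninges, had 16.4, 15.9, 16.3 and 16.4 CPM. The variable members were 3 of 17: Postn (34.8, 19.6, 32.6 and 16.6 CPM), the gene of periostin, Aldh1a2 (2.45, 4.65, 5.65 and 3.64 CPM), which makes retinoic acid in the meninges, and Slc6a13 (4.62, 4.21, 6.00 and 2.82 CPM), a transporter of leptomeningeal cells. They did not share an order. Each call was lost when either of 2 samples was left out: Cont_294 or Cont_370 for Postn, Cont_294 or Cont_365 for Aldh1a2, and Cont_365 or Cont_370 for Slc6a13.

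The summed levels of vessel genes differed little. Endothelial genes summed to 567, 534, 597 and 556 CPM with 0 of 13 variable and a median ratio of 1.26, and Kdr, a receptor of vascular endothelial growth factor, had 115, 99.6, 110 and 102 CPM. Pericyte and smooth muscle genes summed to 271, 293.7, 299.7 and 286 CPM with a median ratio of 1.34, and Acta2, smooth muscle actin, was the single variable member of 9 (4.27, 1.57, 5.02 and 4.70 CPM), a call lost without Cont_345 (ratio 1.17). Genes of microglia and macrophages summed to 92.7, 97.6, 109 and 92.2 CPM with a median ratio of 1.56, with Ptprc, the leukocyte antigen CD45, the single variable member of 14 at the edge of the call (ratio 2.0002). Cx3cr1, a chemokine receptor of microglia, had 13.1, 11.9, 13.05 and 12.3 CPM.

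Embryonic and adult globins did not follow the same order. All globins took 0.351%, 0.356%, 0.401% and 0.469% of counts. The embryonic globins summed to 3290, 3228, 3623 and 4391 CPM. Cont_370 was highest for 4 of 4, against 25.6% of all tested genes. Hbb-y had 2915, 2787, 3121 and 3664 CPM, Hba-x had 326, 380, 427 and 576 CPM, and Hbb-bh1, an early embryonic beta-like globin, had 46.2, 57.1, 73.3 and 144 CPM. Hbb-bh1 and Hbb-bh0 were variable, and both calls were lost without Cont_370 (ratios 1.59 and 1.21).

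The adult globins ran differently, with summed levels of 233, 365.1, 366 and 267 CPM. Which red cells they came from was not tested. The embryonic to adult ratio was thus 14.1, 8.84, 9.89 and 16.4, high in Cont_294 and Cont_370 and low in Cont_345 and Cont_365. Hbb-bs had 105, 169, 172 and 133 CPM, and Hbb-bt, its neighbour, had 54.0, 74.6, 77.3 and 34.6 CPM. Of 4 adult globin genes 3 were variable, but they include the pairs Hba-a1 with Hba-a2 and Hbb-bs with Hbb-bt, in which 53.2% to 89.3% of 50-base transcript windows are shared between genes, so the split within a pair is uncertain. The call of Hba-a1 was lost without Cont_294 (ratio 1.37) or Cont_345 (1.77), that of Hba-a2 without Cont_365 (1.51) and that of Hbb-bt without Cont_370 (1.44). The sum of Hba-a1 and Hba-a2 was 73.8, 121, 117 and 99.5 CPM, and that of Hbb-bs and Hbb-bt was 159, 244, 249 and 168 CPM.

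Red cell genes other than globins followed the embryonic globins, with 89.3, 88.8, 94.8 and 128 CPM. Cont_370 was highest for 7 of 7, against 25.6% of all tested genes. Slc4a1, the anion exchanger of the red cell membrane, had 35.1, 36.3, 40.6 and 55.9 CPM, and Alas2, an enzyme of heme synthesis, had 36.9, 36.8, 38.9 and 42.1 CPM. Of 7 tested members 3 were variable, among them Ermap and Rhag, and all 3 calls were lost without Cont_370. Without that sample the ratio of the summed level was 1.07 instead of 1.44.

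Lists for tissue outside the dorsal forebrain ranged from near 0 to a few genes at clear levels. Of 17 hindbrain and spinal cord genes, Hox genes for the most part, 14 were at 0 in every sample and the sum never exceeded 0.069 CPM. Surface and olfactory epithelium summed to between 9.43 and 9.74 CPM. Platelet and white cell genes summed to between 10.4 and 14.5 CPM. Skeletal muscle and cartilage genes summed to 299, 329.5, 274 and 314 CPM, nearly all from Col2a1 and Sox9, the second of which radial glia also express. Neural crest genes summed to between 71.2 and 80.8 CPM, most of it Ednrb, an endothelin receptor, and eye and pigment genes to between 41.5 and 55.4 CPM, most of it Dct. Among diencephalic genes Lhx9, which the pallium also expresses, made up most of the sum (75.4, 71.4, 67.4 and 76.8 CPM), and Pax7 was variable (4.62, 2.49, 1.02 and 4.38 CPM), a call lost without Cont_365 (ratio 1.85). The Y-linked genes Ddx3y, Eif2s3y, Kdm5d and Uty were counted in every sample, as the label of male sex implies.

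Several abundant genes with wide spreads had nearly identical copies. A 50-base window was called shared if the same letters occur in a transcript of another gene of the GENCODE M21 annotation (GRCm38, same strand). At 10 CPM and over, genes with at least 50% of windows shared made up 17 of 74 variable genes (23.0%) and 90 of 9946 tested genes (0.905%). The other 57 variable genes shared fewer, Dlx1 among them. Pseudogenes were variable in 53 of 138 cases (38.4%). Hspa8, a constitutive chaperone with 38.6% of windows shared, had 449, 252, 72.4 and 481 CPM, a ratio of 6.64. Its processed pseudogene Gm15459 had 0.690, 87.9, 192 and 0.370 CPM in the opposite order, and held 0.153%, 25.8%, 72.6% and 0.0770% of the sum of both. The call of Hspa8 was lost without Cont_365 (ratio 1.90).

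The pair below shows a stretch of 51 coding bases of Hspa8 (9:40800984-40805200, plus strand) and the matching stretch of Gm15459 (5:5781615-5783555, minus strand), 5′ to 3′, where 1 base differs, in capitals. The second pair is Rps3a1 (3:86137940-86142702, minus strand) and Rps3a3 (13:108670603-108671397, plus strand), read the same way. Gene positions are on GRCm38.
Hspa8: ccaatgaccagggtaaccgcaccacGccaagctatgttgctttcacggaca
Gm15459: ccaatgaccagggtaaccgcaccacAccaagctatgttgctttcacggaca
Rps3a1: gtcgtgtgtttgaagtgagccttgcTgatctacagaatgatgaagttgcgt
Rps3a3: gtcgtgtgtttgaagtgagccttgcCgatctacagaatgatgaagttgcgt

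Rps3a1, a protein of the small ribosomal subunit, had 46.9, 44.4, 45.6 and 0.996 CPM, and the processed pseudogene Rps3a3 had 82.1, 77.3, 88.3 and 149 CPM, so the sum of both was 129, 122, 134 and 150 CPM. The call of Rps3a1 was lost without Cont_370 (ratio 1.05). Eif3j1 and Eif3j2, genes of a translation initiation subunit, had 16.5, 10.9, 11.0 and 5.18 CPM and 0.103, 5.24, 4.06 and 9.85 CPM, and their sum had a ratio of 1.11. Tdg, a DNA glycosylase, and Gm9855 summed with a ratio of 1.08, although Tdg alone had 11.4, 12.9, 12.1 and 3.90 CPM.

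The sum was not level in every pair. Hspa8 with Gm15459 kept a ratio of 1.82, Rplp0 (428, 259, 373 and 208 CPM), a protein of the ribosomal stalk, kept 1.81 when summed with Gm8730, and Gapdh with Gm13394 had 4.67, because Gm13394 had 59.8, 59.4, 0.127 and 62.3 CPM while Gapdh had 20.6, 22.0, 19.5 and 29.5 CPM. The share a sample gives to a copy therefore moved between libraries. How reads that match several places were counted was not stated in any source at hand, and its part in these spreads was not tested.

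**Figure D5:**
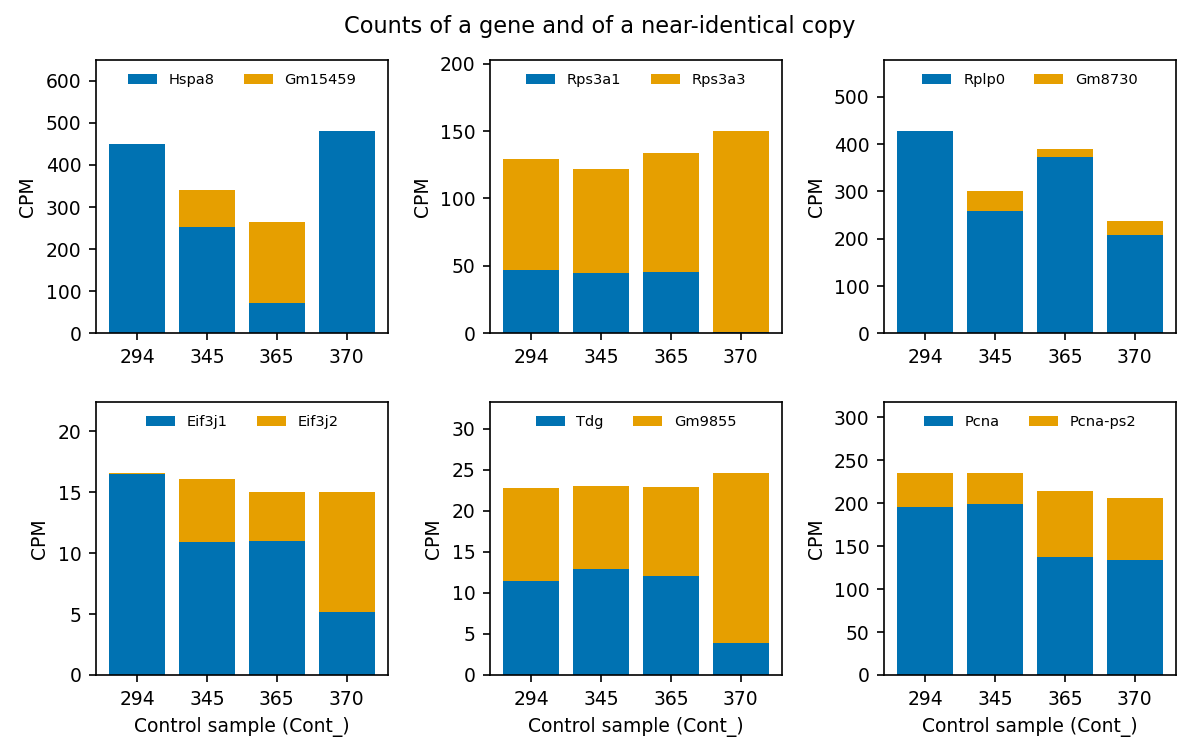
CPM of 6 genes (blue) and of a near-identical copy of each (orange, stacked) in the 4 control samples, with axes from 0. The split between gene and copy changes from sample to sample, and the total is nearly level for Eif3j1 and Tdg and uneven for Hspa8 and Rplp0.

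Copies also exist for mitochondrial genes. Counts of mt-Co2, mt-Co3, mt-Atp6, mt-Nd3 and mt-Nd4l were listed at 0 in every sample, while mt-Co1 had 91646 counts in Cont_294 and mt-Nd1 had 95133. Of their 50-base windows 97.99% to 100% are shared with another gene, against 51.1% for mt-Co1. A window of mt-Co3 (MT:8607-9390, plus strand), coding bases 368 to 417, that also occurs in the nuclear copy Gm28437 (1:24613189-24613971, minus strand) is given 5′ to 3′ to show that the letters do not tell the copies apart.
mt-Co3: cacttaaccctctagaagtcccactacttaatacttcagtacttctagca

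The copies themselves had few counts, 1, 0, 0 and 0 for Gm28437. Shared windows were absent from mt-Atp8, which was also listed at 0. Why these genes were listed at 0 was not tested. Over the whole mitochondrial genome, counted genes took 1.42%, 1.20%, 1.253% and 1.56% of counts, and 0 of 12 tested genes was variable.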

How the data were processed

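Per the labels' protocols, dorsal forebrain RNA (Qiagen RNeasy) went into TruSeq stranded mRNA libraries. The submitters' processing notes name STAR 2.4.2a and GRCm38. For the counting program, its strand setting and its annotation, each was not given in the sources used here. Raw counts for every gene ID, as the authors deposited them, entered the analysis unchanged. The authors also deposited a normalised signal, each count divided by 1 size factor per sample, used here only to check that both tables match. Gene symbols, positions and biotypes came from that table. Columns of values that match no sample numbered 0.

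The 4 control columns were scaled with TMM in edgeR 4.0.16 (R 4.3.3), and edgeR gave the biological coefficient of variation from an intercept-only fit. TPM used union exon lengths of GENCODE M21. The chi-square test was run over all genes averaging 1 CPM or more, with Benjamini-Hochberg adjustment, and was tested on simulated data. Without a second group, no comparison between conditions was made. The adjusted p measures only how these libraries differ.

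The members and the 35 lists were chosen with earlier results of these data known. Named genes were the 6 markers, the 15 highest nuclear protein-coding genes by TPM, the 20 variable genes with the largest ratio (own symbol, no pseudogene), the 10 steadiest genes with at least 100 CPM, and from each list its 4 highest members by TPM and every variable member. Other genes were named after their values were seen, and a few genes under the rule were left out of the text. Windows of 50 bases were compared between all M21 transcripts. Alternatives covered 3 other scalings, 2 other filters, ratios of at least 1.5 and 3, averaging instead of summing lists, ranking by CPM, and each sample left out in turn.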

Additional observations from a re-analysis of the deposited data

Results flagged for a closer look

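A value was picked out where the gap between 1 sample and its nearest neighbour took up more of the range of the 4 samples than Dixon's critical value at the 95% level allows. Chance does this in about 1 in 20 groups, and 779 of the 13640 tested genes (5.71%) met it, close to that rate. Of 179 tested named genes 19 met it, and of 34 lists with a tested member 2 did. Named genes were chosen in part for a wide spread. Gsx2, Tfap2e and Cnpy1 reached 1 CPM only through the sample that stood apart. The count among named genes is therefore not comparable with that of all tested genes.

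Cont_345 stood apart for the summed pallial progenitors (2679 CPM) and, low, for Pdgfrb (39.6 CPM), a receptor of pericytes. Cont_294 stood apart for Fgf17 (20.03 CPM), Etv5 (49.9 CPM) and Cnpy1 (3.03 CPM), the last a gene of FGF signalling centres. Cont_365 stood apart for Lhx6 (8.67 CPM), Sst (3.33 CPM), Nhlh2 (59.0 CPM), a factor of early neurons, and Ppbp (3.97 CPM), a platelet chemokine, and, low, for the Y-linked gene Uty (47.8 CPM) and the steady gene Ppp2r1b (161 CPM).

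Cont_370 stood apart for the summed red cell genes without globins (128 CPM) and for Ermap (11.2 CPM), Hbb-bh0 (6.58 CPM), Gsx2 (3.87 CPM), Tfap2e (3.16 CPM), Barhl2 (3.36 CPM), Rspo1 (50.3 CPM), an R-spondin of the hem, and Tgfa (6.52 CPM), a ligand of the antihem. It was low for Rps3a1 (0.996 CPM) and for the steady gene Suds3 (115 CPM).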

How the results depend on the processing

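The number of variable genes was 525 with median-of-ratios scaling, 541 with total counts alone, 528 with TMM factors made without globin and mitochondrial genes, and 641 with filterByExpr in place of the mean of 1 CPM. Without a filter it was 1289, since 23668 genes were then tested, and 517 of the 527 stayed among them. A ratio of at least 1.5 gave 1553 genes and a ratio of at least 3 gave 142. These are 5.45%, 11.4% and 1.04% of the genes tested, against 3.86%. With 1 sample left out at a time the share ran from 2.17% of 13582 tested genes (without Cont_370) to 3.16% of 13667 (without Cont_345), with the ratio taken over 3 samples. The biological coefficient of variation stayed between 10.07% and 12.05% under all alternatives. The ratio of the summed ventral progenitor list was 4.86 and that of the GABAergic list 2.81 when log2 CPM of tested members was averaged. With 1 sample left out the ventral ratio ran from 1.77 to 2.75, and the mean CPM of Dlx2 from 2.88 to 7.76. The ratios of the choroid plexus, mesenchyme, globin, red cell and rostral lists stayed within 1.5 times of the reported value under each alternative. Of 57 named genes whose call was followed, the 3 scalings changed that of Ptprc alone (ratio 2.0002, and 1.9965 with median-of-ratios scaling). With filterByExpr 12 of the 57 were not tested, Gsx2, Isl1, Dlx5, Tfap2e, Slc18a2, Fezf1, Cnpy1 and Ctse among them. Leaving out Cont_370 ended the call of 16 and left 7 untested, Cont_365 ended 14, Cont_294 ended 11 and left 1 untested, and Cont_345 ended 5. No paired analysis was possible because a single group was analysed and its sample numbers occur in no other group. At 1 to 3 CPM counting alone gave a median CV of 13.7%, which limits what can be told apart there.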

Other observations

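Several variable genes with under 1% of windows shared split the 4 samples 2 against 2. They were picked after their values were seen. Pttg1, the gene of securin, had 13.03, 44.4, 11.4 and 46.1 CPM in Cont_294, Cont_345, Cont_365 and Cont_370. Pop4, a subunit of ribonuclease P, had 70.4, 32.6, 64.1 and 32.2 CPM. In these 2 genes Cont_294 and Cont_365 stood on one side and Cont_345 and Cont_370 on the other. Both genes were chosen for that split, so they are no measure of how often it occurs. Myo19, a myosin of mitochondria, had 32.8, 65.3, 51.9 and 66.0 CPM, with Cont_365 nearer to the higher side.

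In Pianp and Dera 1 sample stood away from 3 that lay close together. Pianp had 29.3, 33.1, 11.2 and 33.0 CPM and Dera, an aldolase of deoxyribose phosphate, had 27.99, 27.9, 12.8 and 26.5 CPM, both low in Cont_365. Scg5, a chaperone of a prohormone convertase, had 17.7, 51.9, 40.7 and 59.4 CPM, lowest in Cont_294. Ctse, the gene of the protease cathepsin E, was high in Cont_370 and next in Cont_345, with 4, 98, 2 and 386 counts, a ratio of 173 with a 95% exact binomial interval of 47.6 to 1434, which was 80.0 without Cont_365 and 56.6 without Cont_370. None of these genes belongs to a list above.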
